A study of Mus musculus with 6 samples.

Results

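The genes Ndrg1, Fgf11, Ankrd37, Ddit4, Adm, P4ha1, Kdm3a and Vldlr, which are widely used as readouts of low oxygen, were followed through the cell types of the mouse retina in oxygen-induced retinopathy (OIR). They are 8 of the 31053 genes in the files, and each had at least 1 unique molecular identifier (UMI, a counted RNA molecule) in every sample. The genes were selected on measured values of these same samples, the change between OIR and control in UMIs summed by cell type, so their changes are given as a description and carry no test. In the OIR group (n = 3 samples), mice were kept in 75% oxygen from postnatal day 7 (P7) to P12 and in normal air for the following 5 days. The control group (Ctrl, n = 3 samples) was of the same age, P17, and no genetic change is named for either group. Each sample pooled the retinas of 2 mice, so no value can be tied to a single animal. Judged by Xist and Y-linked RNA, all OIR pools and Ctrl replicate 1 were male, and Ctrl replicates 2 and 3 were female. The labels name retinal endothelial cells, whereas by marker genes the cells came from the whole retina and few were endothelial.

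In a normally oxygenated cell, the transcription factor subunit HIF-1α is hydroxylated by oxygen-dependent enzymes and broken down. At low oxygen it persists, pairs with HIF-1β and binds short DNA elements with the core letters ACGTG or GCGTG near its targets. In OIR, high oxygen closes off the central capillaries, and the return to room air leaves the inner retina short of oxygen, while photoreceptors are fed mainly by the choroid. The genes serve different ends. Adm encodes adrenomedullin, a secreted peptide that dilates and stabilises vessels. Fgf11 encodes a fibroblast growth factor homologous factor, which stays inside the cell. Ndrg1 encodes a cytoplasmic protein of the stress response. P4ha1 is the catalytic subunit of collagen prolyl 4-hydroxylase, and Kdm3a removes methyl groups from lysine 9 of histone H3, and both enzymes use oxygen as a substrate. Ddit4 (REDD1) restrains the growth kinase complex mTORC1 and also answers to glucocorticoids and to cell stress. Vldlr is the very low density lipoprotein receptor, whose loss in mice lets vessels grow into the outer retina. Ankrd37 is a small ankyrin repeat protein.

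The GENCODE vM21 annotation of GRCm38 places Adm at chr7:110627661-110629820 and P4ha1 at chr10:59323296-59373304 on the plus strand, as it does Vldlr at chr19:27216484-27254231. On the minus strand lie Fgf11 at chr11:69796068-69801857, Ndrg1 at chr15:66929318-66969640, Ankrd37 at chr8:45996902-46005707, Ddit4 at chr10:59949669-59951834 and Kdm3a at chr6:71588972-71632990. RefSeq promoters (GRCm38.p6) matched 7 of the 8 symbols, with 3 entries for Kdm3a and 2 for Vldlr, and Ndrg1 had no entry. The 250 bases before each RefSeq start were searched for ACGTG and GCGTG on both strands. RefSeq and GENCODE do not place every start alike. The Fgf11 window stops short of the GENCODE start of the gene, and the bases between were not searched. The Ankrd37 window lies inside the GENCODE gene. Of all 32851 promoters 38.6% held at least 1 of these words, as did 54.4% of the 13486 promoters of genes that passed the count filter in at least 1 cell type. The words numbered 4 in Ankrd37, 3 in P4ha1, 2 in Ddit4, 2 in Adm and 1 in the first Kdm3a entry. None lay in the windows of Fgf11 or Vldlr or in the other 2 Kdm3a entries. The windows shown here belong to the genes with the largest change in a well sampled neuron and in Müller glia (Fgf11 and Adm), to the gene with the most words (Ankrd37) and to a gene that was lower in OIR rods and cone bipolar cells (P4ha1). They read 5′ to 3′ on the strand of the gene, with the words in capitals, and a word on the other strand appears as CACGT or CACGC. In Ankrd37 a pair of words on opposite strands overlaps. By GENCODE the windows of Adm, Fgf11 and P4ha1 hold no exon, and 17 bases of that of Ankrd37 lie in an exon of the gene.
Adm, chr7:110627407-110627656, plus strand: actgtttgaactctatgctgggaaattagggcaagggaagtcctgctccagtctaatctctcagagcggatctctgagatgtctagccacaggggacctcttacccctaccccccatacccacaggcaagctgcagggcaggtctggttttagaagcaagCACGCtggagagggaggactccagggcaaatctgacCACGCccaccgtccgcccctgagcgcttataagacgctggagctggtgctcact
Fgf11, chr11:69802281-69802530, minus strand: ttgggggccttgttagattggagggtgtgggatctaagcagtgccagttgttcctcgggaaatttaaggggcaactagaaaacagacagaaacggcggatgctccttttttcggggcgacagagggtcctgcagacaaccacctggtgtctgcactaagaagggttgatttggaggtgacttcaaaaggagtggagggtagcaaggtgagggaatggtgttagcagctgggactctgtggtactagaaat
Ankrd37, chr8:45999851-46000100, minus strand: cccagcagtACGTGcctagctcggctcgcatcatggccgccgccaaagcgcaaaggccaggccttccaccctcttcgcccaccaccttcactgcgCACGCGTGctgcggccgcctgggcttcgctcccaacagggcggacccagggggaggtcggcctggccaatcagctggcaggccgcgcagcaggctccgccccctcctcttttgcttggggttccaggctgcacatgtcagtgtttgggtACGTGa
P4ha1, chr10:59323046-59323295, plus strand: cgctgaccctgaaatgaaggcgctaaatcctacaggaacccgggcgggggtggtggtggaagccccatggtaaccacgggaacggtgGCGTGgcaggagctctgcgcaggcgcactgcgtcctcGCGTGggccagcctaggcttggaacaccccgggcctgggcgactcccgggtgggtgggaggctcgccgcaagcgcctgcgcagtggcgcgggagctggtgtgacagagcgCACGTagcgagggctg
A match describes these letters only, and the lack of one says nothing of elements outside the window.

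After filtering, 38569 cells remained (5371 to 7470 per sample), from deposited totals of 15788524 to 42606878 UMIs per sample. Both replicate 1 samples were deeper (median 3958 and 4850 UMIs per cell) than the other 4 (1449.5 to 2354), and their median mitochondrial share was 5.86% and 8.08% against 2.24% to 3.31%. Between 9 and 34 cell barcodes were shared by any pair of samples. Clusters were named from marker genes as rod-like (25381 cells), Müller-like (3905), cone bipolar-like (3430), rod bipolar-like (2059), cone-like (1924), amacrine-like (346), microglia-like (244), retinal pigment epithelium (RPE)-like (234) and vascular endothelial cell (VEC)-like (195). Among VEC-like cells, OIR replicates 2 and 3 held only 2 and 3 cells, so that a single UMI stood for 118 and 231 CPM (counts scaled to the same total of each sum). Levels are CPM of the summed UMIs, given as mean ± SD over 3 samples. Changes are log2 fold changes ± SE from edgeR's quasi-likelihood fit, OIR against Ctrl. The fit returns no SE, so it was worked back as the size of the change over the square root of the test's F. It is rough where a group holds few UMIs. Levels were compared between cell types and samples and not between genes. In such sums fewer expressing cells and less RNA per cell cannot be told apart, so shares of cells with a UMI are given for the genes with the largest changes.

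Fgf11 showed its largest change in rod bipolar-like cells, the neurons that carry rod signals to the inner retina. There its level was 39.1, 57.7 and 50.8 CPM in OIR replicates 1, 2 and 3 (187, 100 and 74 UMIs) and 2.91, 3.89 and 5.08 CPM in the Ctrl replicates (16, 5 and 5 UMIs). The groups did not overlap, with means of 49.2 ± 9.38 and 3.96 ± 1.09 CPM and a log2 fold change of 3.73 ± 0.27. A UMI of Fgf11 was found in 25.04%, 37.0% and 30.1% of OIR rod bipolar-like cells and in 1.95%, 3.05% and 2.53% of Ctrl ones, at median depths of 8444 to 10280 and 6421.5 to 8214 UMIs. In rod-like cells, at median depths of 1403 to 3113.5 UMIs, that share was 0.33% to 1.20%. With each cell thinned to 1000 UMIs, the share in rod bipolar-like cells was 3.35%, 3.41% and 3.92% in OIR and 0.61%, 0.61% and 0% in Ctrl. Cone bipolar-like cells already carried Fgf11 in Ctrl, at 33.9, 69.5 and 51.3 CPM, and held 74.8, 64.1 and 58.8 CPM in OIR (0.43 ± 0.23), with overlapping groups. The OIR rod bipolar-like samples thus lay within the range that cone bipolar-like cells had in Ctrl. Fgf11 was also higher in all 3 OIR samples of rod-like cells, at 2.90, 4.78 and 5.24 CPM against 2.43, 2.16 and 2.28 CPM. In Müller-like and amacrine-like cells the groups overlapped (0.27 ± 0.29 and -0.32 ± 0.49).

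Ndrg1 was the gene among the 8 whose OIR samples lay above the Ctrl samples in most types, namely rod-like, rod bipolar-like, cone bipolar-like and amacrine-like cells. In rod bipolar-like cells its level was 100.6, 125 and 107 CPM in OIR and 24.8, 23.3 and 24.4 CPM in Ctrl (log2 fold change 2.13 ± 0.15). The Ctrl samples were close to each other (SD 0.74 CPM), and every OIR sample was far above them. A UMI of Ndrg1 was found in 50.4%, 62.0% and 55.8% of OIR and in 13.7%, 14.6% and 12.7% of Ctrl rod bipolar-like cells, and with cells thinned to 1000 UMIs in 8.82%, 10.2% and 8.50% against 1.96%, 1.83% and 2.56%. In cone bipolar-like cells the levels were 129, 189.5 and 167 CPM in OIR and 69.4, 55.7 and 59.3 CPM in Ctrl (1.30 ± 0.16). In amacrine-like cells, with 25 to 154 cells per sample, they were 71.6, 167 and 251 CPM in OIR and 14.5, 34.4 and 63.7 CPM in Ctrl (2.46 ± 0.60), where the highest Ctrl sample came close to the lowest OIR sample. In the same amacrine-like cells the median mitochondrial share was 6.20% to 8.04% in OIR and 3.85% to 5.75% in Ctrl, lens markers summed to 5.35 to 627 CPM in OIR and 0 to 4.84 CPM in Ctrl (7 of 7 detected), and vascular smooth muscle markers to 3.58 to 21.4 CPM in OIR and 24.5 to 34.4 CPM in Ctrl (7 of 9, Myh11 and Kcnj8 at 0). Each had an exact permutation p of 0.1, and their part in the Ndrg1 level was not tested. Rod-like cells had the highest mean Ndrg1 level of the 9 types in both groups, 386, 449 and 489 CPM in OIR and 299.6, 320.4 and 283 CPM in Ctrl, with a change of 0.39 ± 0.11. The groups overlapped in cone-like cells (37.2, 97.1 and 98.6 CPM against 28.9, 38.0 and 61.0 CPM). They also overlapped in Müller-like cells (62.0, 84.2 and 79.3 CPM against 70.6, 32.4 and 33.9 CPM), where Ctrl replicate 1 stood among the OIR samples. Astrocyte-like cells were too few to fit (57 cells), and their sums held 209, 261 and 108 CPM of Ndrg1 in OIR and 75.6, 55.7 and 0 CPM in Ctrl.

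**Figure D1:**
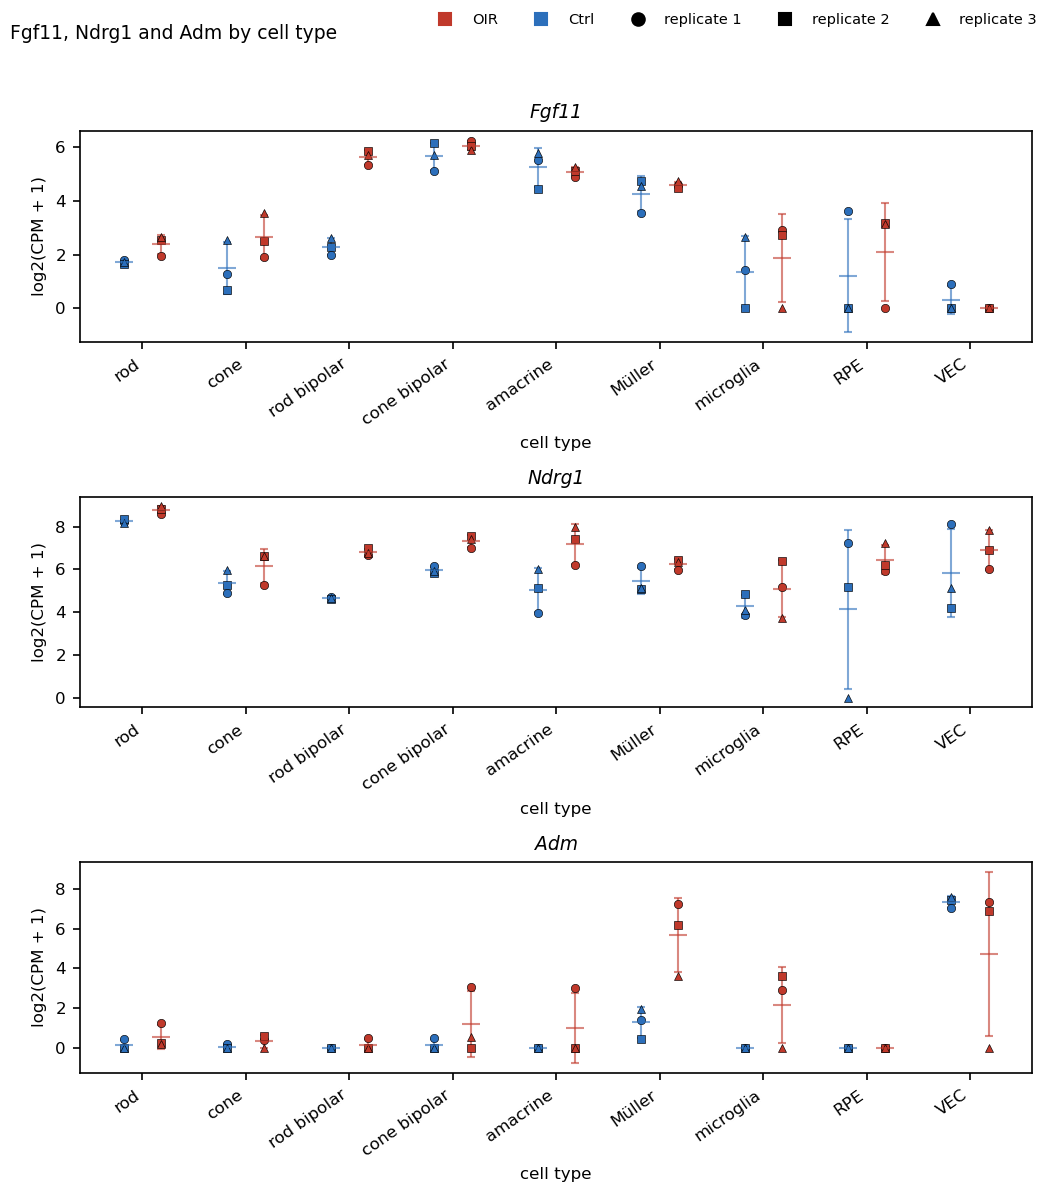
Levels of Fgf11, Ndrg1 and Adm in 9 retinal cell types, as log2(CPM + 1) of each sample (Ctrl blue, OIR red, marker shape giving the replicate), with bars for the mean and SD of the 3 samples of a group. OIR lies apart from Ctrl in rod bipolar cells and rods for Fgf11, in rods, both bipolar types and amacrine cells for Ndrg1, and in Müller glia for Adm.

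Since rods held the most Ndrg1 and made up most cells, rod RNA in the other types' sums was measured from 7 rod markers. The summed markers in rod bipolar-like cells stood at 1989 to 3198 CPM in OIR and 2109 to 4373 CPM in Ctrl (two-sided exact permutation test, n = 3 per group, p = 0.6, where the smallest possible p is 0.1). At the ratio of Ndrg1 to these markers in rods, rod RNA would bring 23.4 to 29.3 CPM of Ndrg1 in OIR and 14.5 to 27.7 CPM in Ctrl. In Ctrl rod bipolar-like cells Ndrg1 was at 24.8, 23.3 and 24.4 CPM, against amounts of 27.7, 14.5 and 17.2 CPM. Ctrl replicate 1 thus lay below its amount and replicates 2 and 3 above theirs. The OIR levels were above the amount in all 3 samples. In cone bipolar-like cells the amounts were 25.2 to 42.6 CPM in OIR and 16.4 to 30.3 CPM in Ctrl, below the measured level in all 6 samples. In cone-like cells the amounts, 68.2 to 163 CPM in OIR and 77.4 to 96.1 CPM in Ctrl, exceeded the measured level in all 6 samples, so the ratio gives too much there, and whether rod RNA keeps that ratio in other types was not tested. In amacrine-like cells OIR replicate 2 would hold 163 CPM by this ratio against 167 CPM measured, while replicates 1 and 3 would hold 37.4 and 113 CPM. The Ctrl samples would hold 22.7, 35.6 and 52.4 CPM against 14.5, 34.4 and 63.7 CPM measured. Rod markers in amacrine-like cells summed to 4082 to 13825 CPM in OIR and 3582 to 7693 CPM in Ctrl (exact permutation p = 0.4). The part of rod RNA in the amacrine-like change of Ndrg1 was not tested. For Fgf11 the amount was at most 0.31 CPM in rod bipolar-like cells.

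Adm, the secreted peptide, was at 1.68 ± 1.27 CPM in Ctrl Müller-like cells, the radial glia that span the retina, and at 76.9 ± 67.9 CPM in OIR ones. Its level was 147, 72.3 and 11.5 CPM in the OIR samples (1169, 249 and 38 UMIs) and 1.71, 0.39 and 2.92 CPM in the Ctrl samples (10, 1 and 5 UMIs), a log2 fold change of 5.58 ± 0.96 (4.60 without OIR replicate 1). The groups did not overlap, but the OIR samples differed widely from each other, and replicate 1 supplied most of the UMIs. A UMI of Adm was found in 25.5%, 9.55% and 3.19% of OIR and in 0.69%, 0.31% and 1.75% of Ctrl Müller-like cells, against at most 0.42% of rod-like cells in any sample. Thinned to 1000 UMIs, the shares were 8.44%, 3.495% and 1.44% in OIR and 0%, 0% and 0.38% in Ctrl. Median depth in Müller-like cells was 8029.5, 2751 and 2216.5 UMIs in the OIR samples and 5961, 7964 and 6317.5 UMIs in the Ctrl samples. These cells formed a cluster of high and one of low UMI counts. Adm stood at 165, 85.3 and 14.0 CPM in OIR and 1.77, 0.47 and 3.41 CPM in Ctrl in the former, and at 28.2, 32.9 and 4.54 CPM in OIR and 1.31, 0 and 0 CPM in Ctrl in the latter, so that OIR was higher in both. Among neurons the highest sums were in OIR replicate 1, at 7.48 CPM in cone bipolar-like cells (50 UMIs) and 7.16 CPM in amacrine-like cells (2 UMIs).

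Vessels carried Adm without OIR. In VEC-like cells the Ctrl samples held 128, 174 and 189 CPM (144, 10 and 11 UMIs) and the OIR samples 160, 118 and 0 CPM, from 33, 1 and 0 UMIs. With so few OIR cells the groups overlapped (-0.16 ± 0.53), and no difference was detectable at this depth. In Müller-like sums the endothelial junction gene Cldn5 stood at 0.88, 0.29 and 0 CPM in their OIR samples and at 4.97, 0 and 0 CPM in Ctrl, against 3316 to 6277 CPM in Ctrl VEC-like cells. The summed VEC markers in Müller-like cells, 1044 to 1238 CPM in OIR and 890 to 1011 CPM in Ctrl (9 of 9 detected, exact permutation p = 0.1, the smallest possible), were mostly Kdr and Flt1. Of these markers Egfl7 was higher in OIR, at 51.3, 39.2 and 49.9 CPM against 6.17, 5.86 and 8.77 CPM in Ctrl, while Cdh5 was at most 0.50 CPM in any sample. Astrocyte markers in Müller-like cells summed to 47.8 to 58.7 CPM in OIR and 22.8 to 33.8 CPM in Ctrl (4 of 4 detected, exact permutation p = 0.1). Horizontal cell markers summed to 13.5 to 16.3 CPM in OIR and 10.5 to 13.02 CPM in Ctrl (5 of 5), and ganglion cell markers to 22.4 to 32.2 CPM in OIR and 34.8 to 44.5 CPM in Ctrl (7 of 7), each with an exact permutation p of 0.1. The part of VEC, astrocyte, horizontal or ganglion cell RNA in the level of Adm was not tested. Microglia-like cells had 5, 2 and 0 UMIs of Adm in the OIR samples and none in Ctrl, where 3 counts over the group, the limit that a count of 0 allows, would be 3.26 CPM. RPE-like cells had no UMI of Adm in any sample.

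The oxygen-using enzymes P4ha1 and Kdm3a were in no type higher in all OIR samples. P4ha1 was lower in all 3 OIR samples of rod-like cells, at 40.3, 40.3 and 30.8 CPM against 47.9, 48.5 and 59.7 CPM (log2 fold change -0.65 ± 0.16). It was also lower in cone bipolar-like cells, at 65.7, 51.7 and 36.5 CPM against 77.2, 72.9 and 101.6 CPM (-0.69 ± 0.22). In rod bipolar-like cells OIR replicate 3 stood at 34.3 CPM, while replicates 1 and 2 (89.1 and 68.6 CPM) lay on either side of the Ctrl values of 80.1 to 85.4 CPM. In Müller-like cells P4ha1 overlapped between groups, at 69.0 ± 15.3 and 76.5 ± 18.1 CPM. Kdm3a overlapped in every type except the thinly sampled VEC-like cells, and where it passed the filter its change lay between -0.30 ± 0.14 in rod-like and 0.31 ± 0.26 in rod bipolar-like cells. In the latter its levels were 46.9, 39.8 and 21.98 CPM in OIR and 34.6, 26.4 and 23.4 CPM in Ctrl, so that 1 OIR sample was below and 2 were above every Ctrl sample.

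Ddit4, the mTORC1 inhibitor, was lower in OIR rod-like cells, at 149, 141 and 121 CPM against 217, 161 and 177 CPM (-0.59 ± 0.15). Müller-like cells held 80.3, 199.9 and 88.4 CPM of it in OIR and 318, 153 and 171 CPM in Ctrl (-0.90 ± 0.35). There OIR replicate 2 lay inside the Ctrl range and the other OIR samples below it. In bipolar cells the means were close, at 95.7 ± 4.79 against 94.9 ± 16.2 CPM in rod bipolar-like and 106.5 ± 19.4 against 111 ± 23.5 CPM in cone bipolar-like cells. Ankrd37 was highest in rod bipolar-like cells, at 389, 274 and 199.9 CPM in OIR and 316, 309 and 440.2 CPM in Ctrl, with overlapping groups (-0.31 ± 0.22). Ankrd37 differed among the OIR pools, being highest in replicate 1 and lowest in replicate 3 in rod-like, cone-like, both bipolar-like and Müller-like cells. In Müller-like cells it stood at 66.8, 36.0 and 11.5 CPM around Ctrl values of 37.4, 26.9 and 31.6 CPM, so that 1 OIR pool lay above and another below every Ctrl pool.

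Vldlr was lower in OIR in both photoreceptors. In cone-like cells it was 203.5, 224 and 203 CPM in OIR and 307.5, 269.6 and 228 CPM in Ctrl (-0.43 ± 0.14). In rod-like cells it was 236, 236 and 191 CPM in OIR and 279, 261 and 242 CPM in Ctrl (-0.40 ± 0.13). In both types the nearest OIR and Ctrl samples were close to each other. In cone bipolar-like cells Vldlr was 156, 204 and 148.0 CPM in OIR and 148.3, 104.6 and 118 CPM in Ctrl, groups that just overlapped (0.37 ± 0.17). In amacrine-like cells it was 104, 268 and 182 CPM against 83.9, 61.8 and 137 CPM (0.96 ± 0.39), also overlapping, and in Müller-like cells the means were 43.9 ± 3.89 and 39.1 ± 5.08 CPM.

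**Figure D2:**
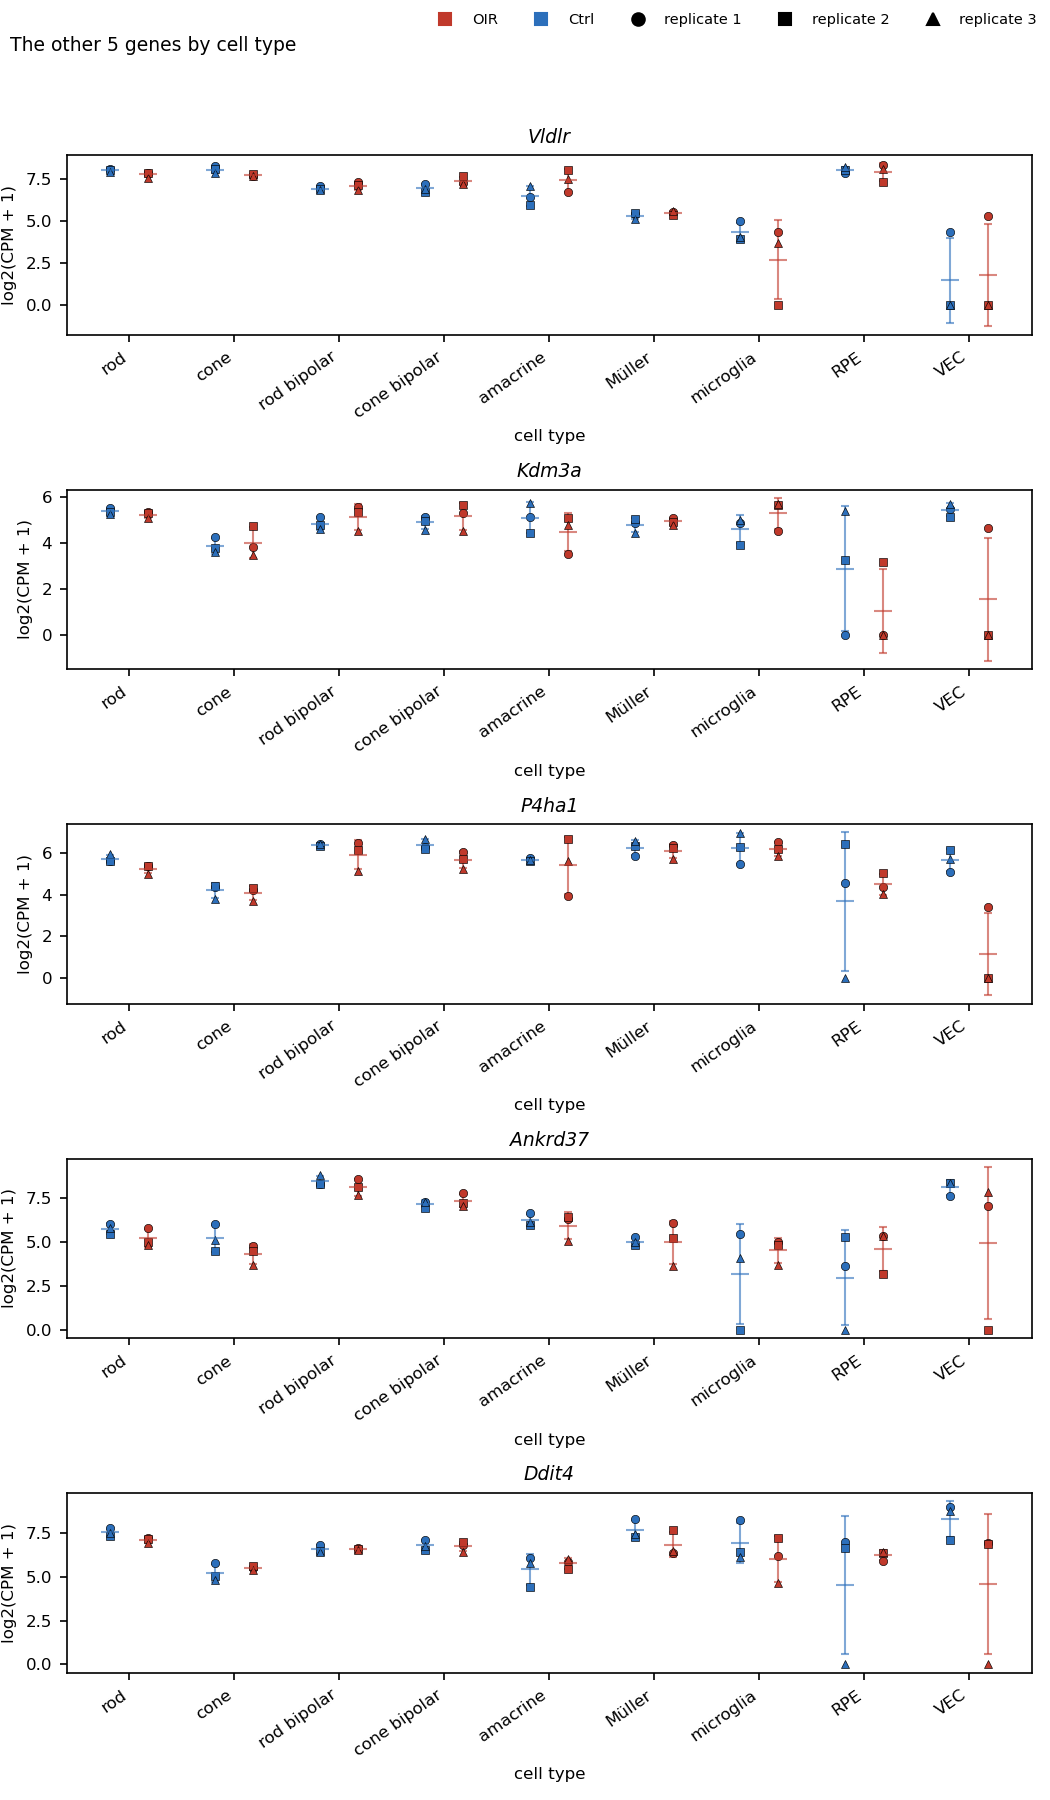
Levels of Vldlr, Kdm3a, P4ha1, Ankrd37 and Ddit4 in 9 cell types, as log2(CPM + 1) of each sample (Ctrl blue, OIR red), with bars for the mean and SD of a group. OIR and Ctrl overlap in most types, and the OIR samples of Vldlr, P4ha1 and Ddit4 lie below the Ctrl samples in rods.

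Side by side, the 8 genes did not move as one. The number whose 3 OIR samples lay above all 3 Ctrl samples was 2 in rod-like cells, where 23.7% of all genes tested did so, 0 in cone-like (11.2%), 2 in rod bipolar-like (11.6%), 1 in cone bipolar-like (11.1%), 1 in amacrine-like (4.62%), 1 in Müller-like (13.9%) and 0 in microglia-like cells (6.59%). The number below was 3 in rod-like (4.63%), 1 in cone-like (5.73%), 0 in rod bipolar-like (7.7%), 1 in cone bipolar-like (6.62%), 0 in amacrine-like (7.17%), 0 in Müller-like (6.93%) and 0 in microglia-like cells (8.47%). In the thinly sampled VEC-like cells 0 lay above and 3 below, and in RPE-like cells 0 and 0. For these types the share of all genes is not given. As the genes were chosen on this contrast, nothing is read from these counts. In plain CPM the median of all genes tested was 0.15 higher in OIR rod-like cells on the log2 scale, a shift that the fit's normalization removes.

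The median log2 fold change over the genes that could be fitted was -0.35 in rod-like, 0.03 in cone-like, 0.22 in rod bipolar-like, 0.29 in cone bipolar-like, 0.03 in amacrine-like, 0.17 in Müller-like, 0.28 in microglia-like, -0.10 in RPE-like and -1.16 in VEC-like cells. The medians of all genes tested lay between -0.09 and 0.01. Without OIR replicate 1 the medians of the 8 genes were -0.028 in cone bipolar-like, -0.040 in rod bipolar-like, -0.0067 in Müller-like and -0.08 in microglia-like cells. Those of cone-like and amacrine-like cells were below 0 without Ctrl replicate 2 or OIR replicate 2, that of cone-like cells also without Ctrl replicate 3, and that of RPE-like cells was above 0 without OIR replicate 2. The filter on low counts was passed by 8 of the genes in Müller-like cells, 7 in rod-like, rod bipolar-like and cone bipolar-like cells, 6 in cone-like, 4 in amacrine-like, 2 in microglia-like and 1 in RPE-like and VEC-like cells. Ranked by the mean size of the change regardless of sign, the order was VEC-like (1.25), rod bipolar-like (1.20), microglia-like (1.11), amacrine-like (1.05), Müller-like (0.99), cone bipolar-like (0.85), rod-like (0.76), cone-like (0.69) and RPE-like cells (0.62). In VEC-like, microglia-like and amacrine-like cells at least 4 of the genes in this mean did not pass the filter. By the median size the order changed, with rod bipolar-like cells (0.33) below rod-like (0.62) and cone-like cells (0.68), since most of their mean comes from Fgf11, Ndrg1 and Adm, the last on 2 UMIs.

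**Figure D3:**
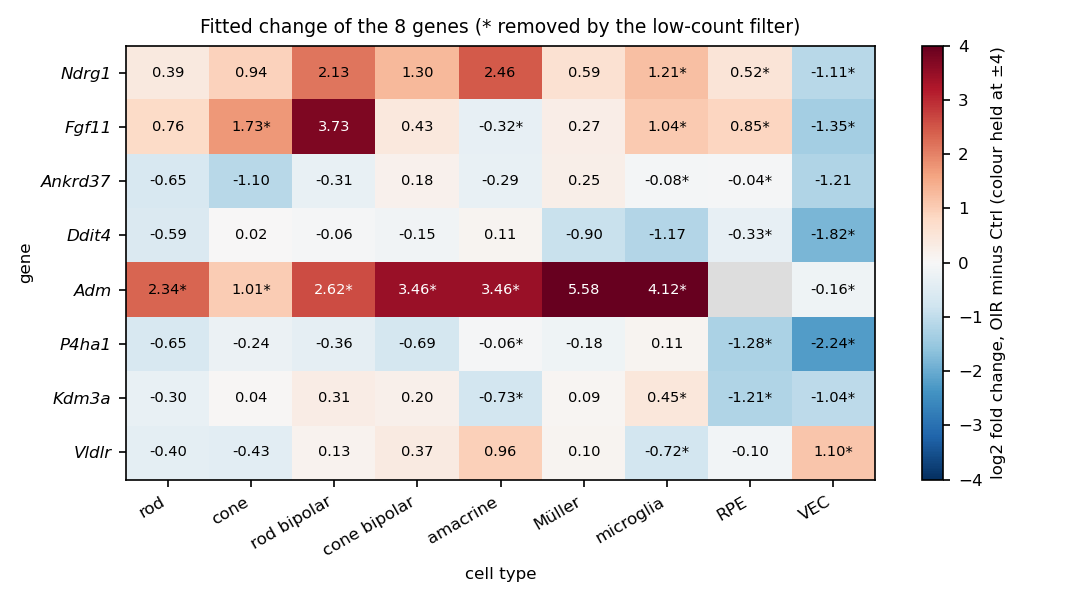
Fitted log2 fold change, OIR minus Ctrl, of the 8 genes (rows) in 9 cell types (columns), red for higher and blue for lower in OIR, with an asterisk where the gene did not pass the low-count filter. The largest values among genes that passed are 5.58 for Adm in Müller glia and 3.73 for Fgf11 in rod bipolar cells, and Adm in RPE, with no UMI, has no value.

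Without OIR the genes already differed in where, among the 9 types, they were found. Ndrg1 was highest in Ctrl rod-like cells (301 ± 18.7 CPM), apart from the next type. Fgf11 was highest in cone bipolar-like (51.5 ± 17.8 CPM), amacrine-like (39.9 ± 17.3 CPM) and Müller-like cells (19.5 ± 7.92 CPM), neighbours that overlapped, and the last stood apart from rod bipolar-like cells below it. Ankrd37 was highest in rod bipolar-like cells (355 ± 74.0 CPM), overlapping with VEC-like cells (285 ± 75.1 CPM), and cone bipolar-like cells came next (144 ± 19.0 CPM), apart from the types on either side. Ddit4 led in VEC-like (361 ± 197 CPM), Müller-like (214 ± 90.4 CPM) and rod-like cells (185 ± 28.8 CPM), all of which overlapped. Adm led in VEC-like cells (164 ± 31.8 CPM), apart from the next type. Vldlr was highest in cone-like (268 ± 39.7 CPM), RPE-like (264 ± 33.2 CPM) and rod-like cells (261 ± 18.6 CPM), which overlapped, and rod-like cells stood apart from cone bipolar-like cells (124 ± 22.4 CPM). For P4ha1 and Kdm3a no neighbours in the order were apart, with the highest means at 83.9 ± 15.5 CPM in cone bipolar-like cells for P4ha1 and 43.6 ± 8.44 CPM in VEC-like cells for Kdm3a.

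The other genes of the hypoxia pathway were taken from 4 lists that together hold 65 genes and leave out the 8. These lists were chosen with earlier results of these data known. They were tested in the fit across all genes and called where the Benjamini-Hochberg adjusted p was under 0.05 and the change was no smaller than 0.25 on the log2 scale, up or down. In rod bipolar-like cells 14 of the 44 list genes tested rose and none fell, where 1.29% of all genes tested rose and 1.17% fell. In Müller-like cells 12 of 57 rose and none fell (1.63% and 1.17% of all genes), and in cone bipolar-like cells 7 of 50 rose and none fell (0.497% and 0.341%). In rod-like cells 1 of 49 rose and 2 fell (1.58% and 1.01%), and in cone-like cells 1 of 38 rose and none fell (0.805% and 0.466%). In microglia-like cells 2 of 26 rose, where 0.324% of all genes were called in either direction. By edgeR none of 27 list genes was called in amacrine-like, of 13 in VEC-like and of 18 in RPE-like cells, where 0%, 0.409% and 0.0577% of all genes were called. An unadjusted p under 0.05 was held by 4 list genes in amacrine-like and by 0 in VEC-like and RPE-like cells, and DESeq2 called 0 in each of them. The share of all genes with such an unadjusted p is not given. The medians over the list genes tested were 0.53 in rod bipolar-like, 0.38 in cone bipolar-like, 0.29 in Müller-like, 0.61 in microglia-like, -0.15 in rod-like and -0.13 in cone-like cells. They were -0.12 in amacrine-like, -0.12 in VEC-like and -0.07 in RPE-like cells. Leaving out 1 sample gave 8 to 15 calls in rod bipolar-like, 6 to 9 in cone bipolar-like, 3 to 11 in Müller-like, 1 to 10 in rod-like, 1 to 2 in cone-like and 0 to 2 in microglia-like cells. These counts and those that follow join rises and falls, and the directions are not given. The Müller-like count was 3 without Ctrl replicate 2, 4 without OIR replicate 1, 5 without Ctrl replicate 3 and 7 without OIR replicate 3, and the rod bipolar-like count was 8 without Ctrl replicate 2 and 9 without OIR replicate 2. Over all genes, Müller-like calls went from 326 to 88, 90, 102 and 103 in these fits, in that order. Those of rod bipolar-like cells went from 229 to 106 and 80. The rod-like count was 10 without OIR replicate 1, 3 without Ctrl replicate 1 and 1 without any other sample, and the cone-like count was 2 without either replicate 1. Over all genes, rod-like calls went from 299 to 448 without OIR replicate 1 and 985 without Ctrl replicate 1. They were 42 to 45 without any other sample. The microglia-like count was 0 without Ctrl replicate 1, Ctrl replicate 2 or OIR replicate 1 and 1 without Ctrl replicate 3. With the replicate number as a block, 22 list genes were called in cone bipolar-like and 2 in cone-like cells, where 474 of 10263 and 387 of 9441 genes were called over all.

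**Figure D4:**
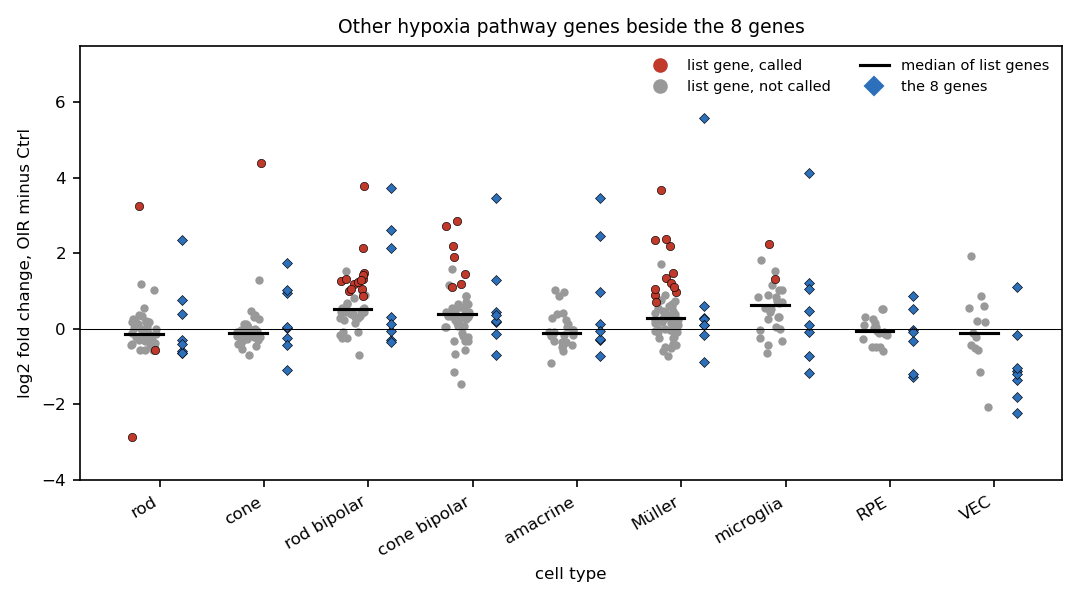
Log2 fold change, OIR minus Ctrl, of the other hypoxia pathway genes tested in each cell type (red where called, grey where not, with a bar at the median) and of the 8 genes (blue diamonds, a description only). Called list genes lie above 0 in cones, both bipolar types, Müller glia and microglia, and rods have 1 above and 2 below.

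Glycolysis enzymes turn glucose into lactate, and their list also holds transporter genes. From this list 6 genes were called in rod bipolar-like, 4 in Müller-like, 1 in cone bipolar-like and 1 in microglia-like cells, all higher in OIR. The transporter gene Slc16a3 was the only gene of the list called in cone bipolar-like cells. Hk2, the hexokinase typical of photoreceptors, stood at 90.4, 66.3 and 67.3 CPM in OIR rod bipolar-like cells and 17.8, 15.6 and 15.3 CPM in Ctrl (log2 fold change 2.14 ± 0.21, adjusted p = 7.3e-05 by edgeR). In rod-like cells Hk2 was the only called gene of the list and was lower, at 38.3, 12.2 and 15.3 CPM in OIR and 192, 117 and 124 CPM in Ctrl (-2.87 ± 0.42, adjusted p = 0.014 by edgeR). In cone-like cells Hk2 was not called, but all OIR samples (345, 333 and 317 CPM) lay below all Ctrl samples (378, 522 and 507 CPM). Of the glycolytic enzymes, Pfkp rose in both rod bipolar-like (1.04 ± 0.23) and Müller-like cells (1.05 ± 0.20), Aldoc and Ldha in rod bipolar-like (1.48 ± 0.21 and 0.85 ± 0.16), Gpi1 and Pgk1 in Müller-like (0.88 ± 0.14 and 0.69 ± 0.14) and Pgam1 in microglia-like cells (1.32 ± 0.26). The glucose transporter gene Slc2a1 rose in rod bipolar-like cells (1.32 ± 0.26). Slc16a3, the lactate exporter MCT4, rose in rod bipolar-like (1.17 ± 0.22), cone bipolar-like (1.44 ± 0.19) and Müller-like cells (1.34 ± 0.30). The oxygen-sensing hydroxylase Egln1, which marks HIF-1α for breakdown, rose in rod bipolar-like and cone bipolar-like cells (1.43 ± 0.18 and 1.19 ± 0.17), and its relative Egln3 in Müller-like cells (2.35 ± 0.49). The collagen lysyl hydroxylases Plod1 and Plod2 rose in rod bipolar-like cells (1.25 ± 0.28 and 1.24 ± 0.30), where the collagen prolyl hydroxylase P4ha1 was at -0.36 ± 0.25. Of the secreted factors, Apln, Stc2 and Loxl2 rose in Müller-like cells (2.19 ± 0.38, 1.21 ± 0.21 and 2.38 ± 0.32), the type in which Adm was higher, and Stc2 and Loxl2 also rose in cone bipolar-like cells.

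Of the mitochondrial and storage genes, Cox4i2, a respiratory chain subunit used at low oxygen, rose by 3.78 ± 0.30 in rod bipolar-like and by 2.19 ± 0.31 in cone bipolar-like cells. Its rod bipolar-like levels were 118, 73.2 and 98.9 CPM in OIR and 8.19, 7.0002 and 2.03 CPM in Ctrl, the same order of groups as Fgf11, beside 959 to 1172 CPM in OIR and 649 to 1114 CPM in Ctrl Müller-like cells. Bnip3, a mitophagy receptor, rose in rod bipolar-like (1.30 ± 0.17), cone bipolar-like (1.09 ± 0.15), Müller-like (0.97 ± 0.16) and microglia-like cells (2.24 ± 0.44). Ndufa4l2, which lowers complex I activity, rose in Müller-like (3.67 ± 0.21), rod-like (3.23 ± 0.27), cone-like (4.38 ± 0.67) and cone bipolar-like cells (2.85 ± 0.43). Its level was 973 to 1380 CPM in OIR and 74.6 to 101 CPM in Ctrl Müller-like cells. In rod-like cells it was 19.8 to 23.7 CPM in OIR and 1.14 to 2.99 CPM in Ctrl. In cone-like cells it was 7.92 to 40.8 CPM in OIR, and the Ctrl samples held 6, 1 and 0 UMIs. In cone bipolar-like cells it was 14.2 to 23.0 CPM in OIR, and the Ctrl samples held 32, 1 and 0 UMIs. The changes in cone-like and cone bipolar-like cells thus rest on few Ctrl UMIs. Müller markers summed to 251 to 269.7 CPM in OIR and 172 to 255 CPM in Ctrl rod-like cells (7 of 7 detected, exact permutation p = 0.2). In cone-like cells they summed to 369 to 503 CPM in OIR and 342 to 382 CPM in Ctrl (exact permutation p = 0.3). In cone bipolar-like cells they summed to 207 to 228 CPM in OIR and 194 to 346 CPM in Ctrl (exact permutation p = 0.4). Since Ndufa4l2 itself was higher in OIR Müller-like cells, these sums do not give the amount that Müller RNA would bring. The part of Müller RNA in the Ndufa4l2 level of these types was not tested. Fam162a rose in rod bipolar-like and Müller-like cells (1.00 ± 0.16 and 1.10 ± 0.20), as did Ero1l, an oxidase of protein folding (1.30 ± 0.23 and 1.47 ± 0.23), and Higd1a rose in the former (1.05 ± 0.17). Hilpda, which guards lipid droplets, fell in rod-like cells (-0.57 ± 0.11).

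**Figure D5:**
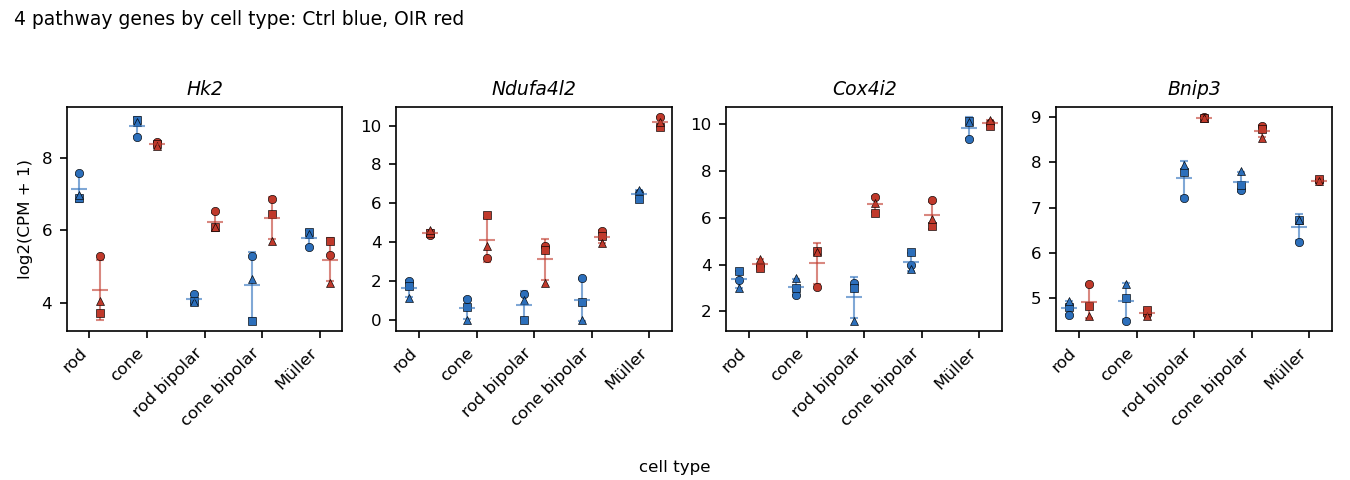
Levels of Hk2, Ndufa4l2, Cox4i2 and Bnip3 as log2(CPM + 1) of each sample (Ctrl blue, OIR red) in photoreceptors, bipolar cells and Müller glia, with bars for the mean and SD of a group. Hk2 is lower in OIR than in Ctrl in rods and in cones and higher in rod bipolar cells, and Bnip3 is higher in OIR in both bipolar types and in Müller glia.

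Whether the pathway's change differed from that in rods was tested for rod bipolar-like, cone bipolar-like and Müller-like cells. The sums of rods and of the other type entered a joint edgeR model that carried each sample as a block. This test was added after the counts above were known, and amacrine-like cells were not tested in this way. The change was higher in rod bipolar-like than in rod-like cells for 19 of 50 list genes, where 0.534% of all 12179 genes were so called. It was higher in cone bipolar-like than in rod-like cells for 10 of 54 (0.36% of 13331 genes) and in Müller-like than in rod-like cells for 12 of 58 (0.492% of 13406 genes), and lower for none in these comparisons. A fall in rod-like cells also makes such a difference. The median change of the glycolysis list was -0.39 in rod-like, 0.46 in rod bipolar-like, 0.34 in cone bipolar-like and 0.42 in Müller-like cells. Pdk1, Pgk1, Eno1, Gapdh, Gpi1 and Pgam1 were among the 19 but were not called within rod bipolar-like cells. Of the 10, Pgk1, Eno1, Hk2, Higd1a, Fam162a and Pgam1 were not called within cone bipolar-like cells. Of the 12, Hilpda, Hk2, Tpi1, Aldoa and Pgam1 were not called within Müller-like cells. Hk2 differed by 5.16 ± 0.28, 4.59 ± 0.30 and 2.28 ± 0.40 on the log2 scale (adjusted p = 3.5e-08, 1.5e-06 and 0.011 by edgeR). Its fall in rod-like cells enters each of these differences. In Müller-like cells Hk2 overlapped, at 38.5, 50.8 and 22.1 CPM in OIR and 45.6, 60.5 and 58.5 CPM in Ctrl. In cone bipolar-like cells it was 115, 85.5 and 51.2 CPM in OIR and 38.3, 10.3 and 24.1 CPM in Ctrl. Within these types alone it was called in neither. Egln1 differed by 1.28 ± 0.15 between rod bipolar-like and rod-like cells (adjusted p = 0.00032 by edgeR). Leaving out 1 sample gave 12 to 21, 4 to 20 and 7 to 13 genes. The 12 for rod bipolar-like cells came without OIR replicate 3, the 4 and 20 for cone bipolar-like cells without OIR replicate 2 and Ctrl replicate 1, and the 7 for Müller-like cells without OIR or Ctrl replicate 3. For cone bipolar-like cells 5 remained without Ctrl replicate 2 or OIR replicate 3.

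Further lists held genes of other pathways that can raise some of the 8, such as Ddit4. Of 14 genes of the integrated stress response, Cebpb rose in rod-like (1.64 ± 0.30), Shmt2 in rod bipolar-like and cone bipolar-like (1.98 ± 0.38 and 1.43 ± 0.27), and Ddit3 and Nupr1 in Müller-like cells (0.69 ± 0.16 and 2.03 ± 0.47). In these types, in this order, 11, 7, 7 and 11 of the 14 were tested. Of all genes 1.58%, 1.29%, 0.497% and 1.63% rose there. Of 9 glucocorticoid response genes, Sgk1 fell in microglia-like cells (-1.61 ± 0.26, adjusted p = 0.022 by edgeR) and no other gene was called. In microglia-like cells 6 of the 9 were tested, and 0.324% of all genes were called in either direction. Of 14 genes that respond to tissue dissociation, Fos, Nr4a1 and Dusp1 fell in rod bipolar-like cells (-2.20 ± 0.26, -3.16 ± 0.43 and -1.68 ± 0.41) and no other gene was called. In rod bipolar-like cells 10 of the 14 were tested, and 1.17% of all genes fell. The median change of the dissociation genes tested was -0.65 in rod bipolar-like, 0.14 in cone bipolar-like, 0.19 in rod-like and 0.98 in amacrine-like cells, the types in which Ndrg1 was higher in all OIR samples. In amacrine-like cells 6 of the 7 tested had an unadjusted p under 0.05, and none was called by edgeR after adjustment. The share of all genes with such an unadjusted p is not given. The part of dissociation in the level of Ndrg1 was not tested.

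Other values moved with the groups in rod bipolar-like cells, and their part in the levels of Fgf11 and Ndrg1 was not tested. Lens markers summed to 4.18 to 83.6 CPM in OIR and 1.02 to 3.11 CPM in Ctrl (7 of 7 detected), and Müller markers to 185 to 245 CPM in OIR and 116 to 177 CPM in Ctrl (7 of 7 detected). Red cell markers summed to 0.69 to 6.90 CPM in OIR and 14.0004 to 38.2 CPM in Ctrl (4 of 4 detected). For each of these and for the median depth given above, the two-sided exact permutation p was 0.1, the smallest possible. The Müller markers did not move alike. The water channel gene Aqp4 stood at 43.3, 57.7 and 73.5 CPM in OIR and 8.74, 14.8 and 12.2 CPM in Ctrl rod bipolar-like cells, although it was lower in OIR in Müller-like cells (277 to 415 against 674 to 901 CPM). The glutamine synthetase gene Glul, at 96.7, 113 and 68.0 CPM in OIR and 102.5, 96.4 and 56.9 CPM in Ctrl, and Clu overlapped between the groups. OIR Müller-like cells themselves held 21.5 to 25.4 CPM of Fgf11 and 62.0 to 84.2 CPM of Ndrg1, less than OIR rod bipolar-like cells in every sample. In rod-like cells, red cell markers summed to 9.40 to 43.2 CPM in OIR and 1366 to 2357 CPM in Ctrl (4 of 4 detected), lens markers to 0.81 to 168 CPM in OIR and 0 to 0.62 CPM in Ctrl (7 of 7) and astrocyte markers to 2.39 to 5.10 CPM in OIR and 1.497 to 1.87 CPM in Ctrl (4 of 4). In cone-like cells horizontal cell markers summed to 21.0 to 32.2 CPM in OIR and 13.8 to 14.6 CPM in Ctrl (5 of 5), and astrocyte markers to 0.52 to 1.38 CPM in OIR and 0 to 0.35 CPM in Ctrl (3 of 4, Pax2 at 0). In cone bipolar-like cells VEC markers summed to 33.5 to 59.1 CPM in OIR and 64.4 to 90.2 CPM in Ctrl (9 of 9), ganglion cell markers to 5.51 to 7.61 CPM in OIR and 16.1 to 24.01 CPM in Ctrl (6 of 7, Pou4f2 at 0), red cell markers to 2.54 to 11.03 CPM in OIR and 16.3 to 70.7 CPM in Ctrl (4 of 4), and rod bipolar markers to 1656.2 to 1794 CPM in OIR and 1606 to 1655.9 CPM in Ctrl (7 of 7). Each of these sums had an exact permutation p of 0.1, and their part in the levels of the 8 genes in rod-like, cone-like and cone bipolar-like cells was not tested. In microglia-like cells (17 to 81 per sample) median depth was 9673 to 11795 UMIs in OIR and 5603 to 7005 in Ctrl. Red cell markers there summed to 0 to 5.19 CPM in OIR and 13.99 to 34.0 CPM in Ctrl (3 of 4). Smooth muscle markers summed to 5.55 to 11.7 and 0 to 5.10 CPM (5 of 9). Each had an exact permutation p of 0.1, and their part in the Bnip3 and Pgam1 calls was not tested.

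Between the 8 genes, over 48 sums (8 cell types without VEC-like cells in 6 samples, log2 levels centred on each cell type), the closest pairs were Ddit4 and P4ha1 (Pearson r = 0.65), Ndrg1 and Ddit4 (0.63), Ankrd37 and Ddit4 (0.58) and Ndrg1 and Fgf11 (0.58). The most opposed pairs were Kdm3a with Ddit4 (-0.52) and with Ndrg1 (-0.50). RPE-like sums were kept in these values. There the median log2 level of the 8 genes had a within-group SD of 1.97, against 0.69 in microglia-like cells, the next highest kept type. Ctrl replicate 3 held 14 RPE-like cells with 23756 UMIs, and Ndrg1 at 0 CPM. Kdm3a had 1 UMI in OIR and 3 in Ctrl RPE-like cells. No r was computed without RPE-like cells, and the part of these thin sums in each r was not tested. The genes whose pattern was most like the mean of the 8 over 54 sums, VEC-like cells included, were Unc50, Cct5, Tsen34, Polr2e, Snw1, Cyth2, Med28, Hypk, Acot13 and Ndufv2 of 1154 genes, with r of 0.79 to 0.86. Without VEC-like cells, these had r of 0.58 to 0.71 and places 8 to 58, so the likeness was weaker without the VEC-like sums. These values describe sums that share libraries and depth.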

How the data were processed

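Droplet single-cell RNA-seq (10x Genomics 3′ kit, version 3) was made by the authors from dissociated retinas at P17. The deposited values are raw UMI counts per gene and cell barcode, made with Cell Ranger. The submitters' processing notes name mm10, and the gene identifiers in the files are mouse. Each deposited matrix came with cells already called, and further filters were applied here after the study's limits: 500 to 5000 genes and at most 20% mitochondrial UMIs per cell. Cells were clustered with Seurat 5.3.0 (OIR and Ctrl integrated, 15 principal components, 20 neighbours, resolution 0.5), and clusters were named from marker lists by a scoring rule chosen after the clusters were seen. Scrublet (scanpy 1.11.5) called doublets only in the replicate 1 samples, so doublets were kept, and removal of the highest scores was an alternative.

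Raw counts were summed per sample and cell type and tested with edgeR 4.0.16 (R 4.3.3): TMM, filterByExpr, quasi-likelihood test, Benjamini-Hochberg over all genes tested in that type. Genes of the 8 that filterByExpr removes were fitted beside those it keeps. Single values were compared by two-sided exact permutation tests. Samples are pools of 2 mice, described in the study's methods as biological replicates, and p-values measure the spread between pools. Shares of cells and limits from a count of 0 cover counting error only.

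The 8 genes and the lists were chosen with earlier results of these data known. Genes named from the lists are the called ones with the lowest p, up to 4 per list and cell type, and Slc2a1, and Pfkp and Ero1l in rod bipolar-like cells, were added after their values were seen, as further called genes. Genes most like the 8 are those with the highest correlation of centred log2 CPM (1 CPM added). Markers of other cell types are named because they moved with the groups or bear on a level.

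Replicate numbers come from the titles. Deviations from the group means of same-numbered samples correlated at 0.67, 0.30 and 0.51 over all cells, above 0.1 in every pair, and within cell types every pair exceeded 0.1 only in rod-like and cone bipolar-like cells. The fit with the replicate number as a block was an alternative, beside DESeq2 1.42.0, no count filter, a term for sex, a 10% mitochondrial limit, clustering without the pathway's genes, clustering without integration, and leaving out each sample.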

Additional observations from a re-analysis of the deposited data

Results flagged for a closer look

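The change in OIR differed between cell types for several pathway genes. Against rod-like cells, the edgeR model with a sample block called a higher change for 19 list genes in rod bipolar-like, 10 in cone bipolar-like and 12 in Müller-like cells. Hk2 differed by 5.16, 4.59 and 2.28 on the log2 scale in these types. A fall in rod-like cells enters these differences, and within Müller-like cells the Hk2 levels of the groups overlapped. In each of the 3 types some of these genes were not called within the type alone.

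Other genes of the lists had all OIR samples above all Ctrl samples in one type and below them in another. They were picked for this pattern, and the share of all genes that show it is not given. Within single types, VEC-like and RPE-like cells left out, 4.62% to 23.7% of all genes tested lay above and 4.63% to 8.47% below. Nothing is therefore read from the number of these genes. Dusp1 was at 1.35 in rod-like and -1.68 in rod bipolar-like cells (log2 fold change, tested difference, adjusted p = 0.004 by edgeR), and Hilpda at 0.28 in Müller-like and -0.57 in rod-like cells (adjusted p = 0.046 by edgeR). For the others the difference was not tested. These were Aldoc at 1.48 in rod bipolar-like and -0.43 in Müller-like cells, Fam162a at 1.52 in microglia-like and -0.60 in amacrine-like cells, and Gpi1 at 0.88 in Müller-like and -0.31 in cone-like cells. Nr4a1 was at 0.42 in Müller-like and -3.16 in rod bipolar-like cells, and Pgam1 at 1.32 in microglia-like and -0.36 in cone-like cells.

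Adm also appeared in an unnamed cluster with leukocyte genes (375 cells) that no main comparison used. Its mean there was 16.9 CPM in OIR, from 1, 4 and 2 UMIs in the OIR samples and none in the Ctrl samples. In this cluster the microglia marker list scored best. Clustering without integration, an alternative, named 623 cells microglia-like, against 244 in the main clustering.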

How the results depend on the processing

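No result turned its direction while called. Of the 45 calls of named list genes, 42 held with DESeq2, 45 with the replicate block, 45 without the count filter and 33 with a term for sex, and 21 held without Ctrl replicate 2. The term for sex rests on 2 Ctrl samples against 4 others.

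The median log2 fold change of the 8 genes moved, with replicates 2 and 3 alone (chosen after seeing the data), to 0.50 in amacrine-like and 0.51 in cone-like cells, and, with a term for sex, to 0.084 in cone bipolar-like and 0.016 in rod bipolar-like cells. Leaving out 1 sample gave medians of -0.44 to -0.24 in rod-like, -0.15 to 0.45 in cone-like, -0.040 to 0.42 in rod bipolar-like, -0.028 to 0.45 in cone bipolar-like, -0.09 to 0.26 in amacrine-like, -0.0067 to 0.26 in Müller-like, -0.08 to 0.73 in microglia-like, -2.49 to -0.99 in VEC-like and -0.36 to 0.21 in RPE-like cells. With VEC-like cells left out of the order, the highest Ctrl type was the same for 5 of the 8 genes by the mean over cells and for 5 by the share of thinned cells.

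Calls among the hypoxia lists, without the count filter, numbered 3 in cone-like, 18 in cone bipolar-like, 8 in microglia-like and 25 in rod bipolar-like cells. Over all genes, 325 of 17031, 422 of 18898, 134 of 14441 and 606 of 17490 were called in these types. For the next settings, brackets give the calls over all genes tested. In every setting here the list calls join rises and falls, and their directions are not given. With the replicate block list calls numbered 2 in cone-like (387 of 9441) and 22 in cone bipolar-like cells (474 of 10263). With replicates 2 and 3 alone they numbered 3 in cone-like (379 of 9328) and 11 in cone bipolar-like cells (300 of 9844). The same setting gave 0 in microglia-like (14 of 3219) and 20 in rod-like cells (2480 of 11701). With a term for sex there were 11 in cone bipolar-like (339 of 10263), 0 in microglia-like (22 of 3399) and 9 in rod bipolar-like cells (169 of 9322). At a 10% mitochondrial limit 0 were called in microglia-like cells. Leaving out 1 sample gave 8 to 15 in rod bipolar-like, 6 to 9 in cone bipolar-like, 3 to 11 in Müller-like, 1 to 10 in rod-like, 1 to 2 in cone-like, 0 to 2 in microglia-like and 0 to 1 in VEC-like cells. Genes whose change was higher than in rod-like cells numbered 19 for cone bipolar-like cells with replicates 2 and 3 alone, and 12 to 21, 4 to 20 and 7 to 13 for rod bipolar-like, cone bipolar-like and Müller-like cells without 1 sample. Calls among the stress, glucocorticoid and dissociation lists, 9 in all types, became 25 without the count filter, 21 with the block, 34 with replicates 2 and 3 alone and 3 to 27 without 1 sample. The causes were not tested. In rod-like cells all-gene calls went from 299 to 1250 with the block, 667 with DESeq2, 596 without the filter and 34 with a term for sex.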
